A study of Mus musculus with 17 samples.

Results

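The genes examined were the 9 that encode the NOTCH receptors (Notch1, Notch2, Notch3 and Notch4) and their canonical ligands (Jag1, Jag2, Dll1, Dll3 and Dll4), taken by name. They were 9 of the 26029 genes listed in the count table of model 1, of 24659 in that of model 2 and of 31633 in a second, deeper table of model 1. The expression data were poly(A) RNA sequencing of erythroid blasts kept in culture with erythropoietin (EPO) from 17 mice, 1 library per mouse, and libraries are named by stage and mouse number as in their titles (preleukemic_445). All 17 mice are labelled as carrying a Spi1 transgene, which encodes the transcription factor SPI1 (PU.1), so the controls carry it too. Model 1, on a DBA2JxFVB/N background, held 4 TgSpi1Fanca.wt (TgSpi1FA+/+) preleukaemic mice, 3 TgSpi1Fanca.ko (TgSpi1FA-/-) preleukaemic mice and 3 TgSpi1FA-/- leukaemic mice. FA-/- stands for deletion of Fanca, a gene of the Fanconi anaemia DNA repair pathway. Model 2, on a DBA2J background, held 4 preleukaemic and 3 leukaemic TgSpi1FA+/+ mice. The RNA input was 400 ng in model 1 and 300 ng in model 2, and RNA was fragmented for 8 min and 2 min respectively. Genotype, strain and library protocol therefore changed together between the leukaemic mice of the models and cannot be told apart. The paper also reports a Kit or Nras mutation in the TgSpi1FA-/- leukaemic mice, and Kit mutations in leukaemic cells of the transfusion model. The mutated oncogene was Kit in leukemic_26 and Nras in leukemic_28 and leukemic_39, so it also varied within the leukaemic mice of model 1. Its part in the differences was not tested. The age of the mice is not given in the sources used here, and leukaemia in model 2 arose in mice that had received repeated blood transfusions.

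NOTCH receptors are cut by proteases when a ligand of the Jagged or Delta-like family on a neighbouring cell binds them. The released intracellular domain enters the nucleus, joins the DNA-binding protein RBPJ and a Mastermind-like coactivator, and switches on targets such as the Hes and Hey genes. In blood formation the pathway is best known for T cell commitment and for the emergence of stem cells from endothelium, and in erythroid cells NOTCH2 and its ligand JAG1 have been linked to stress erythropoiesis.

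Libraries held 29964576 to 38217654 counts in model 1, 37726753 to 40514205 in model 2 and 35497594 to 171572736 in the second table. Fanca had 19 to 70 counts in the 6 TgSpi1FA-/- libraries of the first table and 889 to 2941 in the 4 TgSpi1FA+/+ libraries. All 9 erythroid markers checked had counts in every group, and their summed level was 3710 to 5291 counts scaled to library size (CPM, with TMM-adjusted library sizes) in the 7 preleukaemic libraries and 2219 to 3536 in the 3 leukaemic libraries of model 1. For the TgSpi1FA-/- mice preleukemic_40, preleukemic_77 and preleukemic_224 the titles say preleukaemic and the column names say leukaemic, and the titles were followed. Libraries preleukemic_445 and preleukemic_479 differed by a chi-square of 6.377 per degree of freedom. The other pairs within a group of model 1 differed by 79.37 to 258.7. The edgeR fits of the first table and of the interaction, given below, were therefore also computed with the counts of preleukemic_445 and preleukemic_479 summed. Permutation tests, shares of genes without overlap, means, DESeq2 calls and all results of the second table count them as separate mice. In the second table, the library named preleukemic_445 was closest to preleukemic_451 of the first table (r = 0.917 over 11254 genes, against 0.899 for its own number), and preleukemic_479 was closest to preleukemic_445 (0.926 against 0.923). Spi1 had 22985 counts in leukemic_26, 8596 in leukemic_28 and 153 in leukemic_39 of the first table, against 16451 to 33105 in the 7 preleukaemic libraries. It had 171 in leukemic_39 of the second table. Spi1 RNA was thus low in leukemic_39 in both tables, although its label gives it the transgene. Whether this library carries the transgene was not tested, and Jag2 is also given without this library.

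The 250 bases upstream of the RefSeq start are printed for the 3 genes that stood higher in the leukaemic mice, and for Notch2 as a contrast (RefSeq, GRCm38.p6, 5′ to 3′ on the gene's strand). Notch2 had the highest mean level of the members in every preleukaemic group. Capitals mark matches to GAGGAA, the core of PU.1 sites, on either strand.
Jag2, chr12:112929496-112929745, minus strand: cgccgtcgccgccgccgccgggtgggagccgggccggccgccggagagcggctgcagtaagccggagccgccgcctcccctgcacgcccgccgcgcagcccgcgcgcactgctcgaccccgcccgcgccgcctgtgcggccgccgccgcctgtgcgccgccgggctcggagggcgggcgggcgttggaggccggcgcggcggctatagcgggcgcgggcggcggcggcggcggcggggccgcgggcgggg
Notch1, chr2:26503823-26504072, minus strand: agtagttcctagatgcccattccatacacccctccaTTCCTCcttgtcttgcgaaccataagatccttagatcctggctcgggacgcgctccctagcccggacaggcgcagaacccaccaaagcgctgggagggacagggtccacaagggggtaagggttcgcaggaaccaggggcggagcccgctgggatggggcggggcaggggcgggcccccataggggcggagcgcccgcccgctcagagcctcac
Jag1, chr2:137116521-137116770, minus strand: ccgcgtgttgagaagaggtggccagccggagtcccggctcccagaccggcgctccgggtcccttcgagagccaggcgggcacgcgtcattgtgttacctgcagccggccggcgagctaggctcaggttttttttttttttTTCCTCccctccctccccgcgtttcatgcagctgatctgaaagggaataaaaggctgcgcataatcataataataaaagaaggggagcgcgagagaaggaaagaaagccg
Notch2, chr3:98013288-98013537, plus strand: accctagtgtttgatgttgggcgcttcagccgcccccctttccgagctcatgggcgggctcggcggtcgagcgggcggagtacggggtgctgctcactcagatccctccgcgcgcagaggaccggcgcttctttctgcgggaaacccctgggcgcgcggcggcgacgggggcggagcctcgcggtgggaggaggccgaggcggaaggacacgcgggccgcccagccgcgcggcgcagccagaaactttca
Jag2 had 54 CpG pairs in this window, against a median of 6 over 32851 RefSeq promoters, of which 99.98% held fewer, and its GC content was 87.2%. Notch2 had 34, Jag1 20 and Notch1 16 CpG pairs. The GENCODE models of all 4 genes reach farther upstream than these RefSeq starts, and those of Notch1 and Jag2 span the whole window. Notch1 and Jag1 each held 1 match to GAGGAA, a motif found in 23.25% of all promoters, and Jag2 and Notch2 held none. TGGGAA, the core of RBPJ sites, is in 21.59% of all promoters and was found on neither strand of these 4 windows. The same held for AGATAA, the usual letters of an erythroid GATA1 site, which 9.99% of all promoters hold. A match describes letters in this window, not a site in use.

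In the TgSpi1FA+/+ preleukaemic mice of model 1, NOTCH transcripts were nearly all receptor transcripts. Levels are compared between genes as CPM per kb of exon. The receptors summed to 8.57 to 13.2 per library and the ligands to 0.0398 to 0.156, so that ligands were 0.405% to 1.29% of receptors. Notch2 made 57.6% to 96.4% of the receptor level and Notch3 3.26% to 42.2%. By mean level per kb the order was Notch2 (8.50 ± 0.79, SD, n = 4), Notch3 (2.41 ± 2.54), Jag2 (0.0306 ± 0.0112), Dll3 (0.0270 ± 0.0143), Notch4 (0.0241 ± 0.0107), Dll4 (0.0224 ± 0.0394) and Dll1 (0.00190 ± 0.00380), with Jag1 and Notch1 at 0. Notch2 was above Notch3 and Notch3 above the other members in each of the 4 libraries of this table. Neighbours from Jag2 to Dll4 in this order differed by less than their SD. In the second table of the same mice Notch3 made 30.6% to 50.9% of the receptor level. There it stood above Notch2 in preleukemic_138 (50.9% against 48.9%).

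In the TgSpi1FA-/- leukaemic mice Jag2 made 75.4% to 96.4% of the ligand level. Ligands summed to 0.136 in leukemic_26, 10.1 in leukemic_28 and 20.01 in leukemic_39, and they were 2.30%, 80.3% and 128% of the receptor level of the same libraries. The receptor sums were 5.91 to 15.6, overlapping the 8.57 to 32.1 of the preleukaemic mice. By mean level the order was Notch2 (10.3 ± 5.41, n = 3), Jag2 (9.38 ± 9.08), Notch3 (0.980 ± 0.679), Dll4 (0.349 ± 0.479), Jag1 (0.304 ± 0.418), Notch1 (0.0859 ± 0.0840), Dll3 (0.0630 ± 0.0403) and Notch4 (0.0535 ± 0.0246), with Dll1 at 0. No neighbours in this order differed by more than the larger of their SDs, apart from Notch4 and Dll1. In bulk RNA, more cells of a kind and more RNA per cell cannot be told apart.

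**Figure D1:**
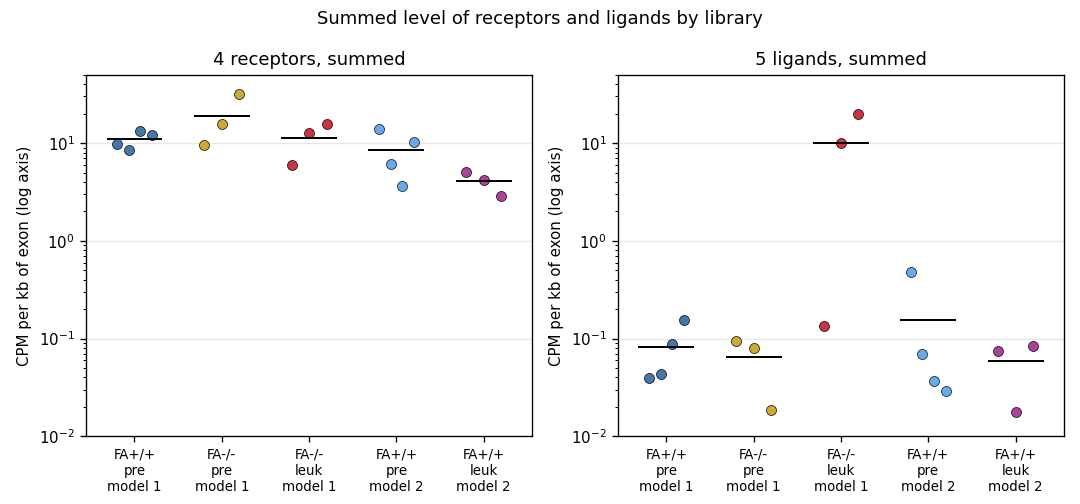
Summed level of the 4 receptors (left) and the 5 ligands (right) in each of the 17 libraries of models 1 and 2, as CPM per kb of exon on a log axis, by genotype and stage; points are libraries and bars are group means. The 3 leukaemic libraries of model 1 sit at 0.136, 10.1 and 20.01 for the ligands, and the receptor sums overlap between the 3 groups of model 1, while those of the leukaemic mice of model 2 (2.90 to 5.04) lie below all of them.

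For each comparison, a gene was called when edgeR's quasi-likelihood test gave a Benjamini-Hochberg adjusted p under 0.05 and the fold change was at least 1.5. Between TgSpi1FA-/- leukaemic and TgSpi1FA-/- preleukaemic mice, 5 of the 9 members passed the filter on low counts and 1 was called higher, where 6.82% of the 13393 genes tested were called higher (13.3% either way). Between TgSpi1FA-/- leukaemic and TgSpi1FA+/+ preleukaemic mice of the same table, 1 of the 5 was called higher, against 3.55% of genes (7.01% either way). Between the preleukaemic genotypes 0 of 5 were called, against 0.00747% of genes, with 0 at an unadjusted p under 0.05 and 0 by DESeq2, which called 1.87% of genes. Both comparisons of the leukaemic mice use the same 3 libraries. Jag2 was the member called in each of them.

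**Figure D2:**
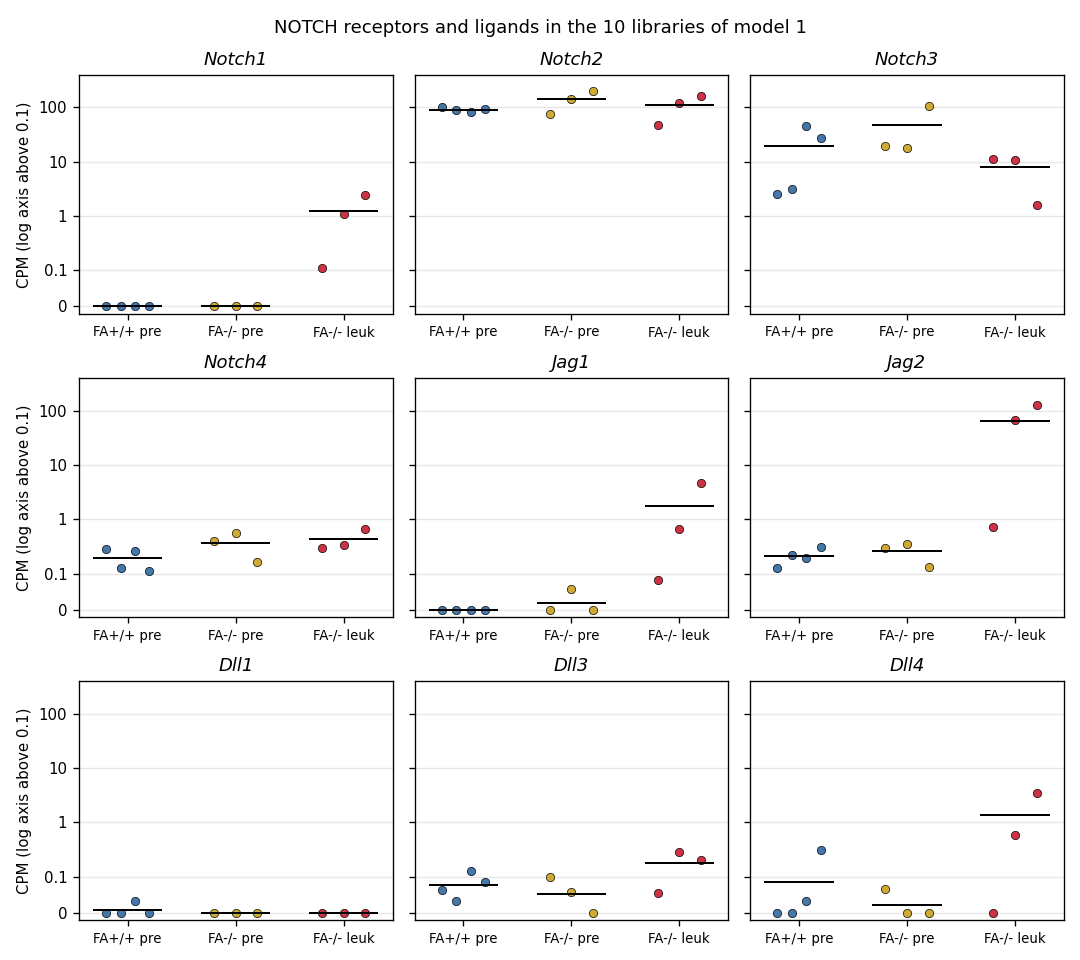
Level of each of the 9 members in the 10 libraries of model 1, as CPM (vertical axis linear below 0.1 and logarithmic above), by genotype and stage; points are libraries in the order of the deposited columns (preleukemic_445, preleukemic_479, preleukemic_451, preleukemic_138, then preleukemic_77, preleukemic_224, preleukemic_40, then leukemic_26, leukemic_28, leukemic_39) and bars are means. Jag2, Notch1 and Jag1 are higher in the 3 leukaemic libraries than in all 7 preleukaemic ones, and Notch2 overlaps between the groups.

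Notch2, a receptor widely used outside T cells, had 3271, 2773, 2564 and 3320 counts in preleukemic_445, preleukemic_479, preleukemic_451 and preleukemic_138, 2346, 4973 and 6269 in preleukemic_77, preleukemic_224 and preleukemic_40, and 1749, 4723 and 6435 in leukemic_26, leukemic_28 and leukemic_39. The 3 groups overlapped, and the TgSpi1FA+/+ libraries lay closest together. The mean was 91.6 ± 8.53 CPM (n = 4), 142 ± 63.0 (n = 3) and 111 ± 58.3 (n = 3). The log2 fold change of leukaemic against preleukaemic TgSpi1FA-/- mice was -0.36 (95% interval -1.33 to 0.62, adjusted p = 0.6079), and that of the genotypes before leukaemia was 0.63 (-0.27 to 1.53, adjusted p = 0.6936). Its direction was not stable, since without leukemic_26 the leukaemic difference was 0.0070. Notch2 is at chr3:98013527-98150361 on the plus strand (GRCm38, GENCODE M21, as for the positions that follow).

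Notch3, a receptor known from vascular smooth muscle and from T cell leukaemia, varied widely within every group. It had 83, 100, 1410 and 957 counts in preleukemic_445, preleukemic_479, preleukemic_451 and preleukemic_138, 594, 611 and 3316 in preleukemic_77, preleukemic_224 and preleukemic_40, and 418, 420 and 63 in leukemic_26, leukemic_28 and leukemic_39. Within the TgSpi1FA+/+ mice preleukemic_445 and preleukemic_479 were low and preleukemic_451 and preleukemic_138 high, and preleukemic_40 was highest of all. All 3 leukaemic libraries lay below all 3 TgSpi1FA-/- preleukaemic libraries, at 7.93 ± 5.49 against 48.2 ± 51.1 CPM, and they overlapped with the TgSpi1FA+/+ mice. Such a lower, non-overlapping position was seen for 19.3% of the genes tested. The exact permutation test, two-sided, gave p = 0.1, the smallest that 3 against 3 allows, and the log2 fold change of -2.60 (-5.45 to 0.24) was not called (adjusted p = 0.186). Of 7 fibroblast and stroma markers, 3 had counts in each preleukaemic group and 5 in the leukaemic one, and Col3a1 and Lum were at 0 in all 3 groups. Their sum was 20.5, 9.80 and 276 CPM in preleukemic_77, preleukemic_224 and preleukemic_40 and 0.939 to 6.01 in the leukaemic libraries, and was 2.40 to 52.8 in the TgSpi1FA+/+ mice, where it was high in preleukemic_445 and preleukemic_479, the libraries low in Notch3. The part of such cells in Notch3 was not tested. Notch3 is at chr17:32120820-32166852 on the minus strand.

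Notch4, an endothelial receptor, was near the limit of counting. It had 4 to 9 counts in the TgSpi1FA+/+ mice, 5 to 19 in the TgSpi1FA-/- preleukaemic mice and 11, 13 and 26 in the leukaemic mice. The leukaemic libraries lay above all TgSpi1FA+/+ ones, as for 12.8% of genes tested, and overlapped with the TgSpi1FA-/- preleukaemic ones. The exact permutation test, two-sided, gave p = 0.0571 against TgSpi1FA+/+, the smallest that 4 against 3 allows, and the log2 fold change of 1.138 (-0.15 to 2.42) was not called (adjusted p = 0.2313). Notch4 reached the filter's cutoff in 3 leukaemic, 2 TgSpi1FA-/- preleukaemic and 0 TgSpi1FA+/+ libraries, where 3 were needed. It would not have passed without the leukaemic libraries, so its tests in this table are no independent support. In the second table the leukaemic libraries (0.297 to 0.574 CPM) overlapped with the TgSpi1FA+/+ ones (0.250 to 0.490). Notch4 is at chr17:34564268-34588503 on the plus strand.

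Notch1, the receptor of T cell commitment, had 0 counts in each of the 7 preleukaemic libraries of the first table. It had 4 counts in leukemic_26, 42 in leukemic_28 and 98 in leukemic_39, so every leukaemic library lay above every preleukaemic one. Against a floor of 3 counts per library, its mean of 1.22 ± 1.195 CPM was at least 13.0-fold higher than in the TgSpi1FA-/- preleukaemic mice and at least 13.2-fold higher than in the TgSpi1FA+/+ mice. Without leukemic_39 these bounds were 6.26 and 6.39. Of all genes with a count, 13.2% and 8.72% stood higher without overlap in these 2 comparisons. Notch1 did not pass the filter of the edgeR fit. With no filter it was not called (adjusted p = 0.05451 and 0.05163), and DESeq2's Wald test called it in each (adjusted p = 0.002348 and 0.001029), where DESeq2 called 12.1% and 8.66% of genes higher. Without leukemic_26 it passed the filter, through leukemic_28 and leukemic_39 alone, and was called (adjusted p = 0.03181 and 0.02975), which is no independent support. Of 6 T cell markers, 3 had counts in each group, with sums of 15.2, 2.45 and 0 CPM in leukemic_26, leukemic_28 and leukemic_39 and 0 to 3.86 in the preleukaemic libraries, and Cd3d, Cd4 and Cd8a were at 0 in all 10. The part of such cells in Notch1 was not tested. Notch1 is at chr2:26457903-26516663 on the minus strand. An opposite-strand transcript, 0610009E02Rik, shares 1068 exonic bases with it and had 9, 20 and 59 counts in leukemic_26, leukemic_28 and leukemic_39 and 5 to 17 in the preleukaemic libraries. Since the strand setting of the counting was not given, reads of such overlapping genes cannot be told apart.

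Jag2, a ligand of the Jagged family, had the largest log2 fold change of the members tested in model 1. It had 4, 7, 6 and 11 counts in preleukemic_445, preleukemic_479, preleukemic_451 and preleukemic_138 and 9, 12 and 4 in preleukemic_77, preleukemic_224 and preleukemic_40. It had 26 counts in leukemic_26, 2665 in leukemic_28 and 5013 in leukemic_39. The preleukaemic genotypes overlapped, leukemic_26 stood at 0.712 CPM just above the highest of them (0.351), and leukemic_28 and leukemic_39 stood at 68.1 and 127. The log2 fold change was 7.96 against TgSpi1FA-/- preleukaemic mice (SE 1.54, 95% interval 4.49 to 11.4, adjusted p = 0.01642) and 8.23 against TgSpi1FA+/+ mice (SE 1.37, 5.15 to 11.3, adjusted p = 0.01616), higher in 3 of 3 leukaemic libraries. Between the preleukaemic genotypes it was 0.28 (-2.51 to 3.06, adjusted p = 0.974). Exact permutation tests, two-sided, gave p = 0.1 and 0.0571 for the leukaemic differences, the smallest these numbers allow, and 19.4% and 12.8% of genes tested stood higher without overlap.

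The calls of Jag2 depended on single libraries, though its direction did not. Against TgSpi1FA-/- preleukaemic mice the adjusted p was 0.05234 without preleukemic_77, 0.06225 without preleukemic_224 and 0.05474 without preleukemic_40, with log2 fold changes of 8.06, 8.25 and 7.63. Against TgSpi1FA+/+ mice it was 0.06043 without preleukemic_445, 0.06044 without preleukemic_479, 0.06212 without leukemic_28 and 0.05776 with preleukemic_445 and preleukemic_479 summed. Without leukemic_26 the log2 fold changes were 8.54 and 8.81 with adjusted p = 0.0008747 and 0.0005345, and without leukemic_39, the library low in Spi1, 7.05 and 7.31 with adjusted p = 0.03954 and 0.04583. Jag2 is at chr12:112907819-112929776 on the minus strand. Of its 19 neighbours tested within 500 kb, 3 were called higher and 2 lower against TgSpi1FA-/- preleukaemic mice, with a median log2 fold change of 0.19. Over all genes 6.82% were called higher and 6.49% lower.

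Jag1, the other Jagged ligand, had 0 counts in all 4 TgSpi1FA+/+ libraries and 0, 2 and 0 in preleukemic_77, preleukemic_224 and preleukemic_40. It had 3 counts in leukemic_26, 26 in leukemic_28 and 180 in leukemic_39, each above every preleukaemic library. For leukemic_26 this rests on 3 counts against 2 in preleukemic_224, which is at the floor of 3 counts. Of all genes with a count, 8.72% stood higher without overlap against TgSpi1FA+/+ mice and 13.2% against TgSpi1FA-/- preleukaemic mice. Its mean of 1.77 ± 2.44 CPM was at least 19.1-fold higher than in the TgSpi1FA+/+ mice against the floor of 3 counts per library, and at least 4.03-fold higher without leukemic_39. Jag1 did not pass the filter of the edgeR fit. With no filter it was called against TgSpi1FA+/+ mice (adjusted p = 0.0458, where 1.76% of genes were called higher) and not against TgSpi1FA-/- preleukaemic mice (adjusted p = 0.0816). DESeq2 called it in each (adjusted p = 0.0003423 and 0.009322), where DESeq2 called 8.66% and 12.1% of genes higher. Jag1 is at chr2:137081456-137116644 on the minus strand.

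Dll4, the Delta-like ligand of sprouting endothelium, had 0, 0, 1 and 11 counts in preleukemic_445, preleukemic_479, preleukemic_451 and preleukemic_138, 2, 0 and 0 in preleukemic_77, preleukemic_224 and preleukemic_40, and 0, 23 and 136 in leukemic_26, leukemic_28 and leukemic_39. The groups overlapped because leukemic_26 had none, and preleukemic_138 stood above the other preleukaemic libraries. The fitted log2 fold change against TgSpi1FA-/- preleukaemic mice was 5.76 (0.76 to 10.8), a value that depends on how 0 counts are smoothed, and it was not called (adjusted p = 0.1085). Dll4 passed the filter through leukemic_28, leukemic_39 and preleukemic_138, and would not have passed without the leukaemic libraries. Dll4 is at chr2:119325784-119335962 on the plus strand, and Gm14207 on the opposite strand shares 214 exonic bases with it and had 2, 14 and 36 counts in leukemic_26, leukemic_28 and leukemic_39.

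Dll3, a ligand that acts mainly inside the cell, had 1 to 4 counts in the TgSpi1FA+/+ mice, 0 to 3 in the TgSpi1FA-/- preleukaemic mice and 2, 11 and 8 in leukemic_26, leukemic_28 and leukemic_39. These ranges overlapped. Dll1, another Delta-like ligand, had 1 count in preleukemic_451 and 0 in the other 9 libraries of model 1, so no difference in Dll1 was detectable at this depth. Dll3 is at chr7:28293553-28302238 and Dll1 at chr17:15367354-15376872, each on the minus strand.

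**Figure D3:**
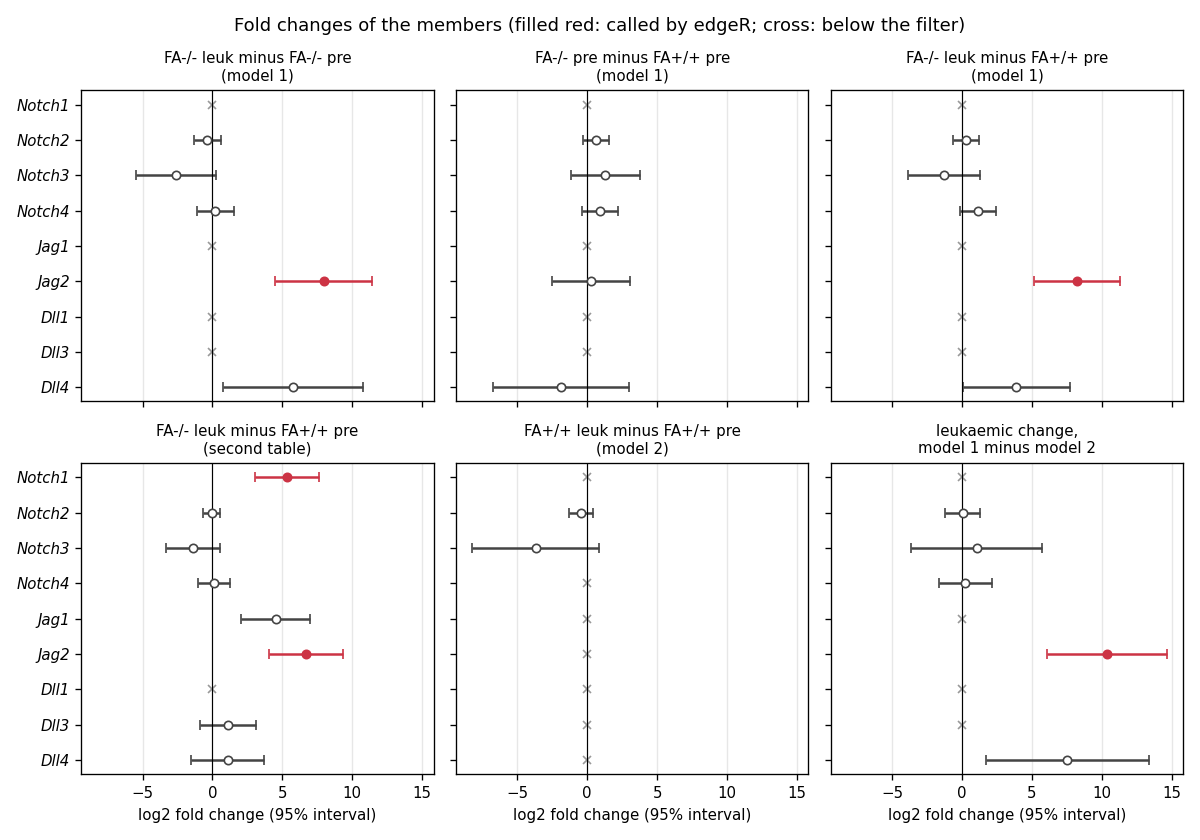
Log2 fold change of each member with its 95% interval in the 6 comparisons, from edgeR's quasi-likelihood fits; filled red points were called, open points were tested and not called, and grey crosses mark members below the filter on low counts. Jag2 is called in 4 of the 6 panels, with fold changes of 7.96, 8.23, 6.70 and 10.37, and Notch1 in the second table only.

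The second table held other counts of the 3 leukaemic and the 4 TgSpi1FA+/+ preleukaemic mice, so it repeats these mice and is not independent of the first table. Jag2 had 627, 7861 and 2395 counts in leukemic_26, leukemic_28 and leukemic_39, against 69, 19, 57 and 12 in preleukemic_138, preleukemic_445, preleukemic_451 and preleukemic_479. Notch1 had 20, 253 and 37 counts against 4, 2, 2 and 1, and Jag1 had 78, 53 and 62 against 2, 7, 0 and 5. For these 3 genes all leukaemic libraries lay above all preleukaemic ones, as for 10.5% of genes tested, and the exact permutation test, two-sided, gave p = 0.0571 for each, the smallest possible. Jag2 (log2 fold change 6.70, SE 1.13, adjusted p = 0.03388) and Notch1 (5.35, 95% interval 3.04 to 7.66, adjusted p = 0.04736) were called higher, 2 of the 8 members tested, where 1.35% of 16799 genes were called higher (1.59% either way). Notch1 and Jag1 passed the filter there through the 3 leukaemic libraries alone, so their tests are no independent support, while 3 preleukaemic libraries reached the cutoff for Jag2. Dll3 and Dll4, which were not called, reached it in the 3 leukaemic libraries and in 2 and 1 preleukaemic ones. Jag1 was not called (4.52, 2.06 to 6.99, adjusted p = 0.0853), and DESeq2 called it (adjusted p = 0.0002234), where it called 7.27% of genes higher. Leaving out any library but leukemic_26 ended the calls of Jag2 and Notch1, with adjusted p of 0.05189 to 0.1193 and 0.06209 to 0.1655 without leukemic_28, leukemic_39, preleukemic_138, preleukemic_445, preleukemic_451 or preleukemic_479 in turn.

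The order of the leukaemic mice was not the same for every gene and table. In the first table leukemic_39 stood above leukemic_28 and leukemic_28 above leukemic_26 for Jag2, Notch1, Jag1 and Dll4. The lowest of the leukaemic libraries for these genes, leukemic_26, was thus the one with the Kit mutation. Whether the mutated oncogene has a part in this order was not tested. In the second table this order held for Jag2 (65.4, 54.2 and 3.54 CPM) and Dll4 (1.09, 0.827 and 0.254). For Notch1 leukemic_28 stood highest (1.74 CPM, with 1.01 in leukemic_39 and 0.113 in leukemic_26), and for Jag1 leukemic_26 and leukemic_28 were close (0.441 and 0.365). Dll4 had 120 counts in preleukemic_138, as many as in leukemic_28, and overlapped between the groups (adjusted p = 0.6339). Notch3 was 2.19 to 43.2 CPM in the leukaemic and 30.7 to 84.7 in the preleukaemic mice, and the libraries named preleukemic_445 and preleukemic_479 were 11.8 and 13.4 times higher than in the first table. For Notch2 the ratio of the second to the first table was 0.558 to 1.45 per mouse number.

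**Figure D4:**
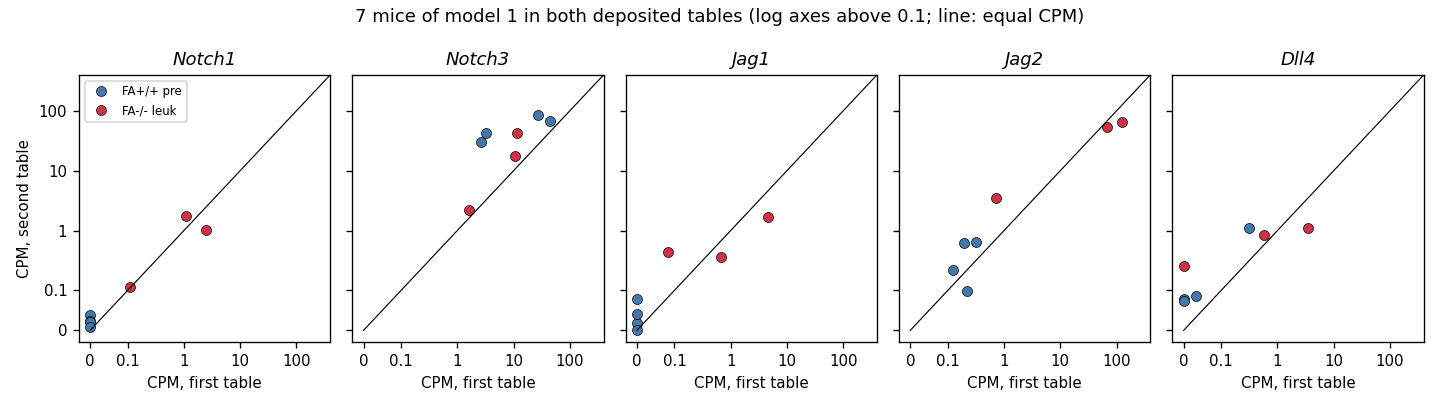
CPM of Notch1, Notch3, Jag1, Jag2 and Dll4 in the first (horizontal) and the second (vertical) table of model 1 for the 7 mice in both, on axes that are linear below 0.1 and logarithmic above; the line marks equal CPM. For Jag2 the libraries leukemic_28 and leukemic_39 sit between 54.2 and 127 CPM in both tables, and for Notch3 all 7 points sit above the line.

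In model 2, where leukaemia arose with Fanca intact, none of the ligands stood higher in the leukaemic mice without overlap. Jag2 had 75, 8, 6 and 4 counts in preleukemic_633, preleukemic_663, preleukemic_812 and preleukemic_837 and 7, 3 and 2 in leukemic_601, leukemic_606 and leukemic_921. Jag1 had 8, 0, 0 and 0 against 0, 0 and 7, Dll4 had 27, 1, 2 and 1 against 2, 1 and 3, and Notch1 had 0, 0, 1 and 1 against 0, 0 and 0. Library preleukemic_633 stood apart as the highest for Jag2, Jag1 and Dll4. Dll3 reached 4 counts and Dll1 3 counts at most.

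Notch2 and Notch3 were the members that passed the filter in model 2, and 0 of these 2 were called, as were 0% of 12970 genes. None of the 2 had an unadjusted p under 0.05, and DESeq2 called 0 members and 3.45% of genes. Notch2 had 2364, 2467, 1143 and 2597 counts in the preleukaemic and 2098, 1776 and 793 in the leukaemic mice, which overlapped, with a log2 fold change of -0.42 (-1.28 to 0.45, adjusted p = 0.5687). Notch3 had 2638, 133, 228 and 1434 counts in the preleukaemic and 0, 3 and 226 in the leukaemic mice, which overlapped through leukemic_921. Its log2 fold change was -3.69 (-8.23 to 0.86, adjusted p = 0.3335), the same sign as in model 1, and it was -2.79 without preleukemic_633 and -9.37 without leukemic_921. Notch4 had 5 to 17 counts in the preleukaemic and 5 to 15 in the leukaemic mice.

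The difference between the leukaemic changes of the models was tested as an interaction over all 17 libraries. For Jag2 the change in model 1 exceeded that in model 2 by 10.37 on the log2 scale (SE 2.02, 6.07 to 14.7, adjusted p = 0.02854), 1 of 5 members tested, where 2.76% of 14597 genes were called higher (4.61% either way). Without preleukemic_633, which was high in Jag2 among the preleukaemic mice of model 2, it was 8.49 (adjusted p = 0.04314). The call ended without preleukemic_77, preleukemic_224, preleukemic_40, leukemic_28, leukemic_39, leukemic_601, leukemic_606 or leukemic_921 in turn (adjusted p = 0.05097 to 0.07697), with values of 9.46 to 10.97. For Dll4 the difference was 7.52 (1.68 to 13.4) and was not called by edgeR (adjusted p = 0.1031). DESeq2 called it higher (adjusted p = 0.04341), as it did 9.22% of all genes. Dll4 reached the filter's cutoff in 2 leukaemic libraries of model 1 and in 1 library of each TgSpi1FA+/+ preleukaemic group, where 3 were needed. It would not have passed without the group where it is high, so these tests are no independent support. Notch2, Notch3 and Notch4 had differences of 0.05, 1.05 and 0.22, each with an interval that spanned 0. That of Notch3 was 0.17 without preleukemic_633 and 6.78 without leukemic_921. Strain, library protocol and, for leukemic_28 and leukemic_39, the mutated oncogene differ between the models too, and cannot be told apart from genotype here.

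The other genes of the pathway were followed through a list of 44 genes of receptor glycosylation, receptor cleavage, ligand ubiquitination, the nuclear complex, negative regulation and targets. Between TgSpi1FA-/- leukaemic and preleukaemic mice 35 were tested, 2 were called higher and 2 lower, where 6.82% of all genes were called higher and 6.49% lower. The 4 of 35 are thus near the 13.3% called either way over all genes, and the median log2 fold change was -0.21 against -0.0012 over all genes tested. Aph1a, a subunit of the γ-secretase that cuts the receptors, rose by 1.81 (adjusted p = 0.001951), from 12.1 to 16.2 CPM in the preleukaemic to 48.8 to 52.6 in the leukaemic mice. Maml2, a Mastermind-like coactivator, rose by 3.81 (adjusted p = 0.01745), from 0.518 to 1.29 CPM to 3.29, 8.82 and 24.9 in leukemic_26, leukemic_28 and leukemic_39. Adam10, the protease of the first cut, fell by 1.01 (adjusted p = 0.01959), from 347 to 504 CPM to 189 to 219. Kat2b, a histone acetyltransferase of the nuclear complex, fell by 1.81 (adjusted p = 0.008362), from 51.7 to 79.9 CPM to 17.8 to 19.2. For each of these 4 genes the groups did not overlap, as for 19.4% of genes tested that stood higher and 19.3% that stood lower. Aph1a and Kat2b stayed called with any 1 of the 6 compared libraries left out, Adam10 was lost without preleukemic_77, preleukemic_224, leukemic_28 or leukemic_39 (adjusted p up to 0.06647), and Maml2 without preleukemic_77, preleukemic_224 or preleukemic_40 (up to 0.05576).

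Against TgSpi1FA+/+ mice the same 4 genes were called in the same directions, with log2 fold changes of 1.65 for Aph1a, 2.47 for Maml2, -1.07 for Adam10 and -0.998 for Kat2b (adjusted p = 0.002919, 0.04993, 0.02122 and 0.04654), where 3.55% of all genes were called higher and 3.46% lower. This comparison shares the leukaemic libraries with the former. Aph1a stayed called there with any 1 of the 7 compared libraries left out. Adam10 was lost without preleukemic_445, preleukemic_479, leukemic_28 or leukemic_39 (up to 0.08032), Maml2 without these or preleukemic_451 (up to 0.1881), and Kat2b without any of the 7 but preleukemic_138 (up to 0.1388). In the second table Aph1a was called, alone among 36 tested (1.63, adjusted p = 0.02002), where 1.59% of all genes were called, and lost without leukemic_28, preleukemic_445 or preleukemic_479 (up to 0.09611). Between the preleukaemic genotypes 0 of 35 and in model 2 0 of 34 were called by edgeR, with 1 and 9 at an unadjusted p under 0.05 and 0 by DESeq2 in each. Over all genes 0.00747% and 0% were called, and 1159 of 13393 and 2587 of 12970 had an unadjusted p under 0.05. In model 2, 30 of 34 had a negative fold change, with a median of -0.47 against -0.03 over all genes tested. The interaction called Aph1a higher (1.68, adjusted p = 0.02922) and Poglut1, an enzyme that adds glucose to NOTCH receptors, lower (-1.66, adjusted p = 0.04712), 2 of 35, where 2.76% of all genes were called higher and 1.85% lower. Aph1a was lost there without preleukemic_77, preleukemic_224, preleukemic_40, leukemic_28, leukemic_39, leukemic_601 or leukemic_921 (up to 0.07697), and Poglut1 without any of the 13 libraries of the contrast but preleukemic_812 (up to 0.1065).

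Of the 8 target genes, 4 were tested in model 1 and none was called. Hes1, a transcriptional repressor and classical NOTCH target, was at 12.7, 32.3 and 38.0 CPM in leukemic_26, leukemic_28 and leukemic_39, against 0 to 7.16 in the TgSpi1FA-/- preleukaemic and 0.224 to 34.7 in the TgSpi1FA+/+ mice. Nrarp, a target that feeds back on the receptors, was at 10.4, 23.4 and 28.6 against 0.0585 to 12.6 and 0.698 to 31.5. Hey1 was at 0.603, 4.45 and 5.53 against 0.322 to 0.722 and 0.0641 to 2.58, and Hey2 at 0, 2.38 and 4.06 against 0.0292 to 0.291 and 0 to 1.85. Hes1 was higher than in the TgSpi1FA-/- preleukaemic mice in all 3 leukaemic libraries, as were 19.4% of genes tested. However, preleukemic_138, a TgSpi1FA+/+ preleukaemic mouse, stood above leukemic_26 and leukemic_28 in Hes1 and above all 3 leukaemic libraries in Nrarp. The log2 fold changes against TgSpi1FA-/- preleukaemic mice were 3.52, 1.35, 2.64 and 4.16 for Hes1, Nrarp, Hey1 and Hey2, with adjusted p of 0.2812, 0.6299, 0.1444 and 0.1741. Their median was 3.08, and it was 1.39 against TgSpi1FA+/+ mice and 1.64 in the second table, beside -0.0012, 0.01 and 0.02 over all genes tested. Between the preleukaemic genotypes it was -1.86, with all 4 lower in the TgSpi1FA-/- mice, beside 0.005 over all genes. In model 2 it was -0.25 over the 3 targets tested, beside -0.03. These medians rest on few genes that vary widely between mice, and none was called by edgeR.

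**Figure D5:**
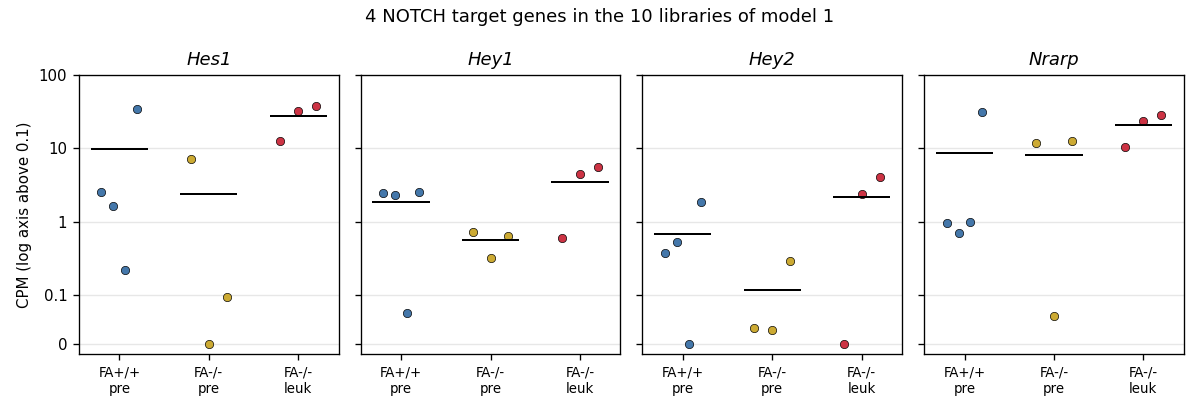
CPM of 4 NOTCH target genes in the 10 libraries of model 1 (vertical axis linear below 0.1 and logarithmic above), by genotype and stage; points are libraries in the order of the deposited columns and bars are means. Hes1 is at 12.7 to 38.0 CPM in the leukaemic mice, and preleukemic_138 among the TgSpi1FA+/+ preleukaemic mice reaches 34.7.

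Notch1, Notch4, Jag1, Jag2 and Dll4 are also used by endothelium, and the summed level of endothelial markers stood higher in the leukaemic libraries of model 1. Of 8 endothelial markers, 7 had counts in the leukaemic mice of model 1 and 5 in each preleukaemic group. Their summed level was 13.8, 52.3 and 39.6 CPM in leukemic_26, leukemic_28 and leukemic_39, against 5.99 to 9.02 in the TgSpi1FA+/+ and 2.05 to 8.67 in the TgSpi1FA-/- preleukaemic mice. Kdr was at 7.32, 26.7 and 34.6 CPM and Tek at 4.14, 21.4 and 0.101 in leukemic_26, leukemic_28 and leukemic_39. The sum in leukemic_39 was thus mostly Kdr, and the markers did not follow 1 order over the 3 libraries. Among the defining markers Cdh5 had 19, 10 and 7 counts and 0 in all 7 preleukaemic libraries, Tie1 had 0, 4 and 1 and 0 likewise, and Emcn was at 0 in all 10. In the second table the sum was 14.0 to 47.3 CPM against 3.39 to 11.7. In model 2 preleukemic_633, the library highest in Jag2, Jag1 and Dll4, also had the highest endothelial sum (8.90 CPM). Library preleukemic_837 had the next highest sum (7.25 CPM), with 4 counts of Jag2, 0 of Jag1 and 1 of Dll4. The part of such cells in the differences of Jag2, Notch1, Jag1 and Dll4 was not tested.

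The genes whose profile over the 10 libraries of model 1 was most like that of a member were found by the root mean square difference of their centred log2(CPM + 1) values. For Jag2 these were Hap1 (0.19), which was at 0.740, 51.0 and 84.0 CPM in leukemic_26, leukemic_28 and leukemic_39 and at most 0.129 in the other libraries, and Dusp4 (0.34), a phosphatase of MAP kinases. For Dll4 they were Lmo7 (0.16) and Ipo9 (0.18), for Notch3 Retreg1 (0.66) and Folr1 (0.72), and for Notch2 Cdc42bpa (0.28) and Ythdc2 (0.28). Notch4 spanned less than 2 on this scale and was left out, and Notch1, Jag1, Dll1 and Dll3 did not pass the filter. The likeness describes these 10 libraries and says nothing of a shared role.

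The genes around the members are given by their median and calls. Notch1, Jag1 and Dll4 lie on chromosome 2 and the others on 4 further chromosomes. Against TgSpi1FA-/- preleukaemic mice the median log2 fold change of the neighbours tested within 500 kb was -0.02 for Notch1 (29 genes, 4 called higher and 1 lower), -0.04 for Dll4 (25 genes, 0 higher and 1 lower) and 0.64 for Jag1 (2 genes, 1 called higher). Over all genes 6.82% were called higher and 6.49% lower there. Among the neighbours of Notch2, 7 of 8 had a positive fold change (median 0.39), beside 6687 of 13393 genes tested. Against TgSpi1FA+/+ mice 15 of the 19 neighbours of Jag2 had one (median 0.46), beside 6797 of 13393 genes. In the second table, which repeats these mice, 17 of 24 did (median 0.45), beside 8604 of 16799 genes. In each of these 0 neighbours of Jag2 were called higher. The neighbours of Notch1 called higher were Agpat2, Dipk1b, Egfl7 and Gpsm1 against TgSpi1FA-/- preleukaemic mice. They were Agpat2, Dipk1b and Gpsm1 against TgSpi1FA+/+ mice, and Agpat2 and Gpsm1 in the second table. Egfl7, a gene of endothelial cells, was thus called against TgSpi1FA-/- preleukaemic mice only.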

How the data were processed

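Poly(A) RNA of cultured erythroid blasts from 17 mice was sequenced, and the authors deposited raw counts per gene in 3 tables: model 1 (10 libraries), model 2 (7 libraries) and a second, deeper table of 7 of the model 1 mice, whose origin is not given in the sources used here. The submitters' processing notes name bcl2fastq 2.17.1.14, STAR 2.5.3a, HTSeq 0.6.1p1 and mm10. The strand setting of the counting is not given in the sources used here. Samples were grouped by genotype, stage and model from their titles. Total counts were 29964576 to 171572736 per library, and floors cover counting error only. SEs and 95% intervals of fold changes were computed from the log2 fold change and F statistic of the edgeR fits. They hold the spread between mice and are approximate where a group is near the floor.

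Counts were tested with edgeR 4.0.16 (R 4.3.3; TMM, filterByExpr, quasi-likelihood test, Benjamini-Hochberg adjustment over all genes tested) without covariates, within each table, and over all 17 libraries for the interaction. Calls needed an adjusted p below 0.05 with a fold of 1.5 or more. CPM are counts over TMM-adjusted library sizes. Single values were compared by exact permutation tests, two-sided (scipy 1.17.1, Python 3.11.15). Each group is made of separate mice. A fold against a group at 0 used a floor of 3 counts per library.

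The alternatives were DESeq2 1.42.0, its size factors, no filter, at least 1 CPM in 3 libraries, preleukemic_445 and preleukemic_479 summed, the compared groups alone, and leaving out each library of the compared groups in turn. For the interaction, leaving out libraries was chosen after seeing the data. The edgeR script was tested on simulated data. Named genes were the 9 members, called genes of the pathway list, and the 2 genes most like each member whose log2(CPM + 1) spans at least 2. Egfl7 and the other called neighbours of Notch1, single marker genes and the 4 target genes were named after their values were seen. Members and lists were chosen with earlier results of these data known. Exon lengths and positions came from GENCODE M21 (GRCm38), in which 25978 of 26029 gene IDs matched, and upstream sequences from RefSeq. Figures were drawn with matplotlib 3.10.9.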

Additional observations from a re-analysis of the deposited data

Results flagged for a closer look

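In groups of 4 libraries, a value was singled out when its gap to the nearest library, over the group's range, was above 0.829, which chance gives in about 1 of 20 groups. It held for 8 of 24 member and group pairs. That rate does not apply to the 3 pairs (Jag1 in preleukemic_633 and Dll1 in each table of model 1) where the other libraries were at 0, since any count then meets it. In model 2, the preleukaemic preleukemic_633 stood apart as highest in Jag2 (1.89 CPM, 75 counts, with the nearest library at 0.200), Dll4 (0.681 CPM, 27 counts) and Jag1 (0.202 CPM, 8 counts), and preleukemic_812 as lowest in Notch2 (30.5 CPM, with the nearest at 59.6). In model 1 the TgSpi1FA+/+ preleukaemic preleukemic_138 stood apart in Dll4 in the first table (0.312 CPM, 11 counts) and in the second (1.12 CPM, 120 counts). Dll1 stood apart in preleukemic_451 of the first table (0.0320 CPM, 1 count) and in preleukemic_138 of the second (0.0372 CPM, 4 counts), each on very few counts. The leukaemic change of Jag2 differed between the models by 10.37 on the log2 scale, by the interaction term of edgeR's quasi-likelihood fit (adjusted p = 0.02854). With each of the 13 libraries of the contrast left out in turn, the adjusted p of this fit was 0.01025 to 0.07697. Strain and library protocol, and in part the mutated oncogene, were confounded with model.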

How the results depend on the processing

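No paired analysis was possible because the replicate numbers are mouse numbers and the groups compared share none. With TgSpi1FA-/- leukaemic against TgSpi1FA-/- preleukaemic mice, 1 member was called, 3 by DESeq2 and 0 with the 1 CPM filter, which Jag2 did not pass, and 4 pathway genes were called, 7 by DESeq2. Against TgSpi1FA+/+ mice, 1 member was called, 3 by DESeq2, 2 with no filter, 0 with the 1 CPM filter and 0 with preleukemic_445 and preleukemic_479 summed, and 4 pathway genes, 2 with no filter, 1 with these summed and 2 with the compared groups alone. Of the second table's members 2 were called, 1 with the 1 CPM filter, and 1 pathway gene, 4 by DESeq2. For the interaction 1 member was called, 2 by DESeq2, and 2 pathway genes, 8 by DESeq2 and 1 with DESeq2's size factors, no filter or preleukemic_445 and preleukemic_479 summed. In the order given, DESeq2 called 19.8%, 14.8%, 9.79% and 13.5% of all genes either way, and edgeR 13.3%, 7.01%, 1.59% and 4.61%. The added calls by DESeq2 thus came with more calls over all genes. With no filter edgeR called 3% of all genes against TgSpi1FA+/+ mice and 1.26% in the interaction. With each library of the compared groups left out in turn the members called were 0 to 3, 0 to 3, 0 to 2 and 0 to 2 in these comparisons, and the pathway genes 2 to 7, 1 to 5, 0 to 2 and 0 to 3. Both counts were 0 throughout between the preleukaemic genotypes and in model 2. Some uncalled members changed sign with a library left out. Against TgSpi1FA-/- preleukaemic mice Notch2 ranged from -0.73 to 0.0070 and Notch4 from -0.20 to 0.64. Between the preleukaemic genotypes Notch3 ranged from -0.064 to 2.13 and Jag2 from -0.020 to 0.59. Against TgSpi1FA+/+ mice Notch2 ranged from -0.11 to 0.63, and in the second table Notch2 from -0.34 to 0.15 and Notch4 from -0.17 to 0.33. In the interaction Notch2 ranged from -0.33 to 0.41 and Notch4 from -0.22 to 0.72. No member changed sign under another setting. The cause of these changes was not tested. Members under about 10 counts per library (Dll1, Dll3 and mostly Notch4) allow no comparison of small changes.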
